A study of Homo sapiens with 20 samples.

Results

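Glycolysis, the handling of its lactate and the genes that answer to low oxygen were followed as a set of 40 genes in orthotopic OVCAR8 tumors from mice given PBS or sodium gluconate. The set was defined by a list of symbols: 2 glucose transporters, 9 genes of upper glycolysis, 6 of lower glycolysis, 6 of lactate and pyruvate handling, 2 PFKFB regulators, 4 of oxygen sensing and 11 hypoxia-responsive targets. All 40 were among the 24196 genes of the deposited table, and 38 of them were among the 12486 genes tested. ALDOC and PDK3 had a mean below 0.5 FPKM and were not tested. FPKM divides the sequenced fragments by gene length and by the size of the library, so levels of different genes can be compared on it.

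OVCAR8 is a human ovarian cancer cell line used as a model of high-grade serous ovarian carcinoma. In the study's methods, luciferase-tagged sgNC cells (carrying a non-targeting guide RNA) were placed in the fat pad of the ovary in NSG mice aged 6 weeks, which lack functional T, B and NK cells. PBS or 1 mg/kg sodium gluconate was then given i.p. once a week for 35 days, and the labels give 4 tumor libraries per group. The dose, schedule, line and host are those of the study's efficacy experiment, to which the labels do not tie the libraries by name. The labels call the samples tumors while the paper's results text speaks of treated cells, and the labels were followed here. Read this way, all 8 libraries came from tumors of 1 human line in an immunodeficient host, and the sources used here do not say how RNA of the mouse host was separated. The number of mice per group in the efficacy experiment equals the number of libraries, but no source used here ties a library to a mouse, so p-values measure the spread between these libraries, which may be technical. The columns of the table bear only the letters C and T with a number. C was read as PBS and T as gluconate from the axis of the paper's volcano plot.

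PBS replicate 4 stood apart in depth, with 3953206 fragments against 39325749 to 46551535 in the other 7 libraries, and it correlated with each of the others at r 0.938 to 0.951 across genes on the log2 scale, where the other pairs reached 0.994. The counts and the fold changes of the genes named in full are therefore given with and without it. Of 12 markers of the ovarian carcinoma line, 8 had a mean of at least 0.5 FPKM, among them PAX8 (median 43.5 FPKM), MSLN (123 FPKM) and KRT8 (852 FPKM), while MUC16, KRT19 and SOX17 had a median of at most 0.0146 FPKM. The summed level of 8 fibroblast markers, nearly all of it from COL1A1, was 45.3 FPKM in PBS replicate 4, 130 to 185 FPKM in the other PBS libraries and 165 to 192 FPKM in the gluconate libraries, while COL1A2, DCN and PDGFRA had a median of at most 0.0271 FPKM. Summed endothelial, red blood cell, skeletal muscle and adipocyte markers stayed at or below 3.37, 0.340, 1.93 and 0.335 FPKM. Of the 6 myeloid markers in the table, CD68 gave nearly all of the 20.8 to 28.9 FPKM, and CD14 and PTPRC had a median of at most 0.00711 FPKM. The part of the other cell types in any value below was not tested, and in bulk RNA fewer cells of a type and less RNA per cell cannot be told apart.

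Glycolysis splits glucose into pyruvate in the cytosol, and lactate dehydrogenase turns pyruvate into lactate, which monocarboxylate transporters carry out of the cell. When oxygen is low, the prolyl hydroxylases of the EGLN family no longer mark the HIF alpha subunits for degradation, and HIF dimers bind short motifs with the core ACGTG or GCGTG in the promoters of many glycolytic and stress genes. Tumor cells often keep high levels of glycolytic mRNA even with oxygen present.

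The 250 bases before a RefSeq transcription start, which need not be the outermost start of the gene, are shown for 5 members. They let the HIF core motif be seen beside the values that follow. BNIP3, ENO2, ERO1A and DDIT4 were among the members that were highest in the same libraries, and P4HA2 was the member with the lowest p in all 8 libraries. Capitals mark ACGTG and GCGTG on either strand (on the other strand they read CACGT and CACGC, and CACGTG is ACGTG on both strands). The sequences are from RefSeq on GRCh38.p14, written 5′ to 3′ along the gene. The windows are chr10:131981924-131982173 on the minus strand for BNIP3, chr12:6914330-6914579 on the plus strand for ENO2, chr14:52695559-52695808 on the minus strand for ERO1A, chr10:72273674-72273923 on the plus strand for DDIT4 and chr5:132227092-132227341 on the minus strand for P4HA2.
BNIP3: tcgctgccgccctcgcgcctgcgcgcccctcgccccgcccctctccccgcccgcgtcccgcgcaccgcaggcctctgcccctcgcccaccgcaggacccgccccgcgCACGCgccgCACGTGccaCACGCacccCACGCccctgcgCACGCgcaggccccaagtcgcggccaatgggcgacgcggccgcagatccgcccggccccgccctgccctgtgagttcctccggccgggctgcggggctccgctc
ENO2: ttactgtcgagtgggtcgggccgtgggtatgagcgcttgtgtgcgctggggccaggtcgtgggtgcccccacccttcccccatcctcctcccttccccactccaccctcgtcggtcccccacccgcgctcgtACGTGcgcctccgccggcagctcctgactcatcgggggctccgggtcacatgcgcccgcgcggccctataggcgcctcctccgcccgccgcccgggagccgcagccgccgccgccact
ERO1A: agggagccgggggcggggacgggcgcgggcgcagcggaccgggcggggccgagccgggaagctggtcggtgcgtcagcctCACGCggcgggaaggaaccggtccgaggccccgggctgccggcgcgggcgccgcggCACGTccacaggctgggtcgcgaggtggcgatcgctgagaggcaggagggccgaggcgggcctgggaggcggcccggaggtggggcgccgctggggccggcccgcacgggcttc
DDIT4: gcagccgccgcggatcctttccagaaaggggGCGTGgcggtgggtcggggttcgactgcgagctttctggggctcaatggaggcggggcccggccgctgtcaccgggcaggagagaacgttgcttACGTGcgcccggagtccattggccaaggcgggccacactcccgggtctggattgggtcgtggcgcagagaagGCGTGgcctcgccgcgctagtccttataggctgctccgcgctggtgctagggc
P4HA2: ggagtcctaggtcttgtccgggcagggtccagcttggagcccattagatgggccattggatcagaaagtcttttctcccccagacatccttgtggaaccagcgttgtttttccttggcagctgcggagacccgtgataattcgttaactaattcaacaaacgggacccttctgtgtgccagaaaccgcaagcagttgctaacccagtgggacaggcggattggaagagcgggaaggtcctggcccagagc

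The window of BNIP3, a mitophagy receptor, held ACGTG 2 times (the palindrome, read on both strands) and GCGTG 4 times. DDIT4, an inhibitor of mTORC1 signaling, held ACGTG 1 time and GCGTG 2 times, ERO1A held each 1 time, ENO2 held ACGTG 1 time, and P4HA2 held neither. RefSeq start windows were found for 36 members, 66 windows in all because some genes have several starts. ACGTG was in 25 of the 66 (37.9%) and in 18.5% of all 35116 windows of the same length. GCGTG was in 25 (37.9%) and in 32.2% of all windows. The 5 windows shown do not stand for how often the motif occurs: ACGTG was in 9 of 24 windows (37.5%) of members that were highest in PBS replicate 3 and gluconate replicate 1 among the 7 libraries without PBS replicate 4, and in 16 of 42 windows (38.1%) of the other members. Either motif was in 54.2% and 64.3% of these windows. These are shares of windows and not of genes, and they depend on how many starts a gene has. HK1 alone gave 7 of the 24 windows and PFKM 7 of the 42. RefSeq and GENCODE do not place every start alike: as GENCODE 29 draws the genes, the windows of ENO2 and ERO1A lie inside the gene and those of BNIP3 and DDIT4 partly inside. The window of P4HA2 lies inside the gene in both sources, since RefSeq puts its 5′ end at chr5:132227853 on the minus strand. That window stands before an internal start, and its lack of motifs does not describe the outermost start. A match of 5 letters is a description of the sequence and not a binding site.

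The members covered a wide range of expression in these tumors. GAPDH, which oxidizes glyceraldehyde 3-phosphate, ranked 12th of the 24196 genes by mean FPKM. ENO1, LDHA, PKM, TPI1 and LDHB followed at ranks 70 to 102, and PDK1, which restrains pyruvate dehydrogenase, was at rank 10716. Together the 40 genes took 1.78% to 2.16% of all fragments of a library, with the highest share in PBS replicate 4 and the next, 2.07%, in gluconate replicate 1. The plot of levels by role shows this range and how close the groups lay.

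**Figure D1:**
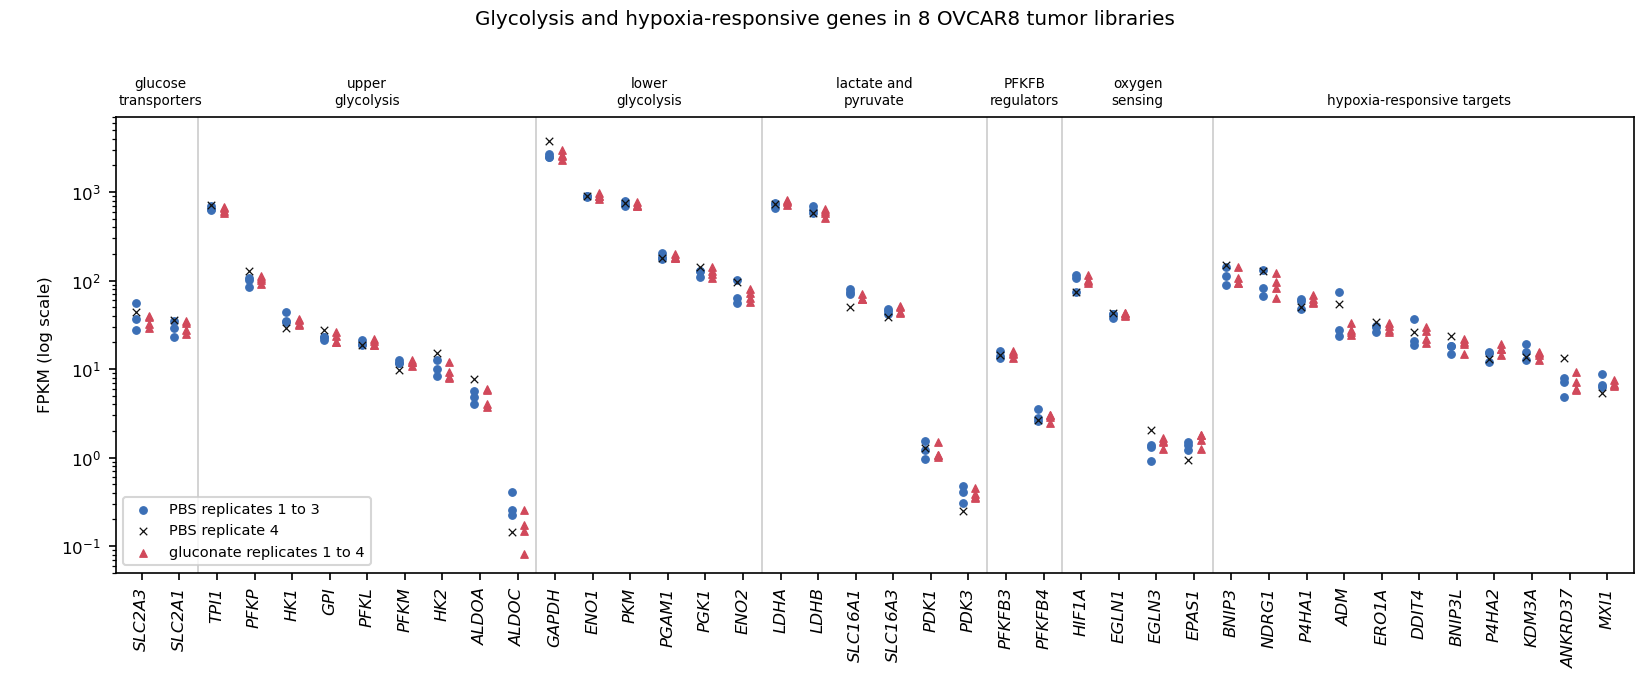
FPKM (log scale) of the 40 genes, grouped by role and ordered by mean level within a role. Circles are PBS replicates 1 to 3, crosses are PBS replicate 4 and triangles are the 4 gluconate libraries. The PBS and gluconate points of a gene overlap throughout, from GAPDH at 2314 to 3806 FPKM down to ALDOC at 0.0807 to 0.404 FPKM.

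Gluconate and PBS tumors differed little across the set. Of the 38 members tested, 1 (P4HA2) was higher with gluconate at an unadjusted p under 0.05 (limma), where 3.13% of all genes tested were, and 0 were lower, where 1.49% of all genes were. Without PBS replicate 4, 0 were higher (2.83% of all genes) and 1 (SLC16A1) was lower (3.36% of all genes). No gene of the table had an adjusted p (limma, Benjamini-Hochberg) under 0.05. The smallest was 0.740 with 8 libraries, where 577 genes had an unadjusted p under 0.05, and 0.802 without PBS replicate 4, where 772 did. The members' counts were near these background shares and are no result about the members. Of the 577 genes, 391 were higher and 186 lower. That split was 368 and 350 with median ratio scaling, 430 and 353 with quantile normalization, 370 and 384 with estimated library weights, and 353 and 419 without PBS replicate 4.

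The median log2 fold change of the members, gluconate minus PBS, was -0.03 with 8 libraries and -0.00 without PBS replicate 4. Over all genes tested it was 0.07 and -0.00. With 8 libraries 14 of 38 members lay above 0, against 66.4% of all genes, and without PBS replicate 4 19 of 38 did, against 48.9%. PBS replicate 4 thus moved the background and the members in opposite directions, and most of the difference between them went with that library. The plot of fold changes gives both estimates for each gene.

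**Figure D2:**
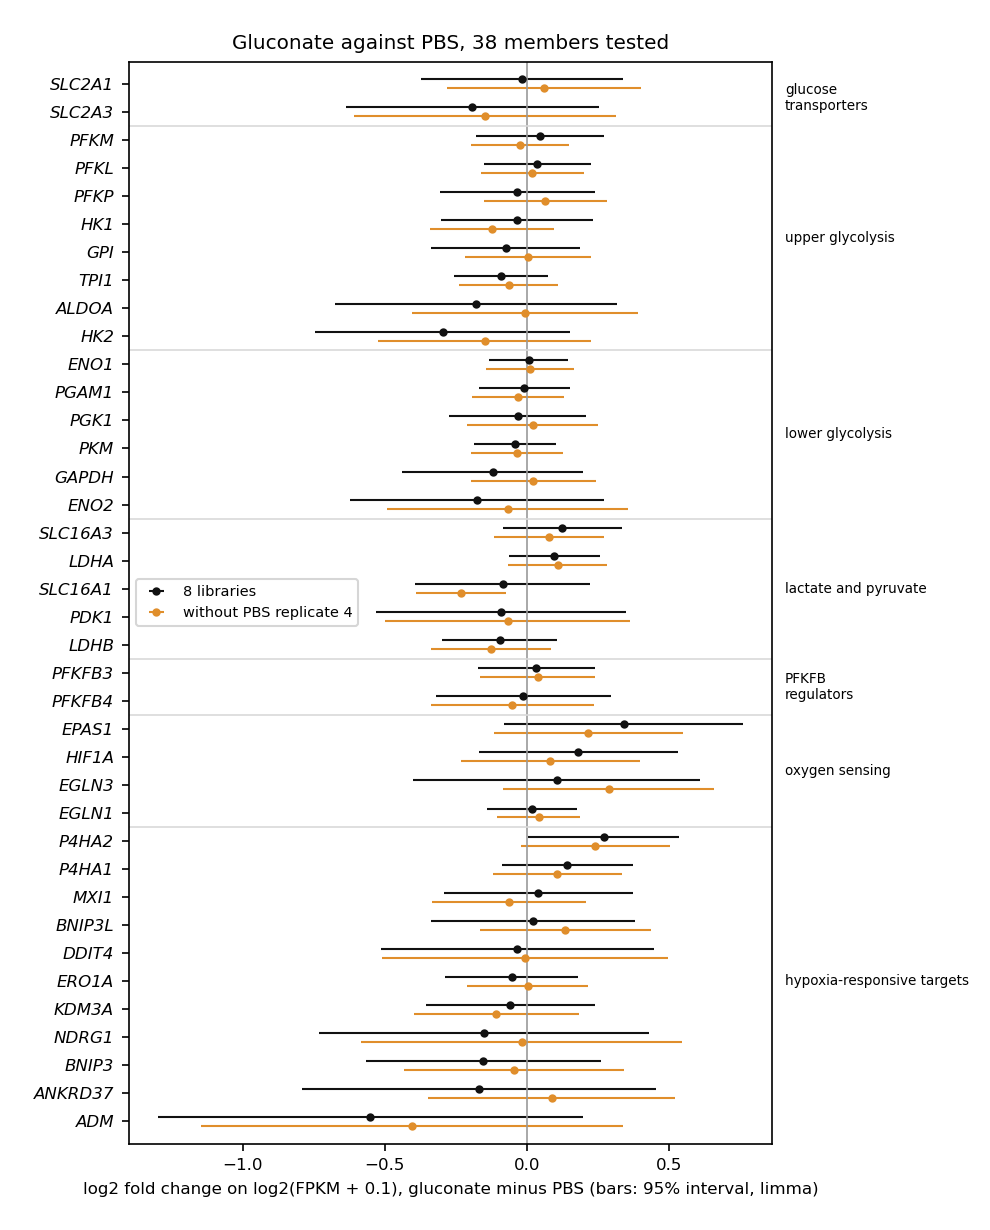
log2 fold change of the 38 members tested, gluconate minus PBS, on log2(FPKM + 0.1), with 95% intervals from limma, for 8 libraries (black) and without PBS replicate 4 (orange). All intervals with 8 libraries include 0 except that of P4HA2 (0.27), and without PBS replicate 4 all include 0 except that of SLC16A1 (-0.23).

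SLC2A1 (GLUT1) and SLC2A3 (GLUT3) bring glucose into the cell. SLC2A3 was at 36.7, 27.9, 56.3 and 43.7 FPKM in PBS replicates 1 to 4 and at 39.7, 29.5, 39.2 and 32.2 FPKM in the gluconate libraries. The gluconate values lay inside the PBS range, with a log2 fold change of -0.19 ± 0.20 (SE, limma adjusted p = 0.769, exact permutation p = 0.486), and of -0.15 without PBS replicate 4. SLC2A1 was at 29, 23.2, 34.5 and 35.4 FPKM with PBS and 34.9, 24.6, 27.3 and 33.3 FPKM with gluconate. Both transporters had their lowest value in PBS replicate 2 and both were among their 3 highest in PBS replicates 3 and 4 and gluconate replicate 1. SLC2A3 took a median of 54.9% of the summed FPKM of both.

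Upper glycolysis runs from hexokinase to triose phosphate isomerase. TPI1, its most abundant gene, was at 649, 634, 704 and 711 FPKM with PBS and at 675, 615, 668 and 578 FPKM with gluconate (log2 fold change -0.09 ± 0.07 SE, limma adjusted p = 0.741, exact permutation p = 0.229, and -0.06 without PBS replicate 4). The groups overlapped, with gluconate replicate 4 lowest of all. HK2, the inducible hexokinase, was at 9.93, 8.38, 12.7 and 15.4 FPKM with PBS and 12.0, 7.92, 9.30 and 8.09 FPKM with gluconate. HK1, the constitutive one, was at 35.2, 33.8, 43.8 and 29.3 FPKM and at 36.6, 32.7, 36.2 and 31.8 FPKM. PBS replicate 4 was thus the highest library for HK2 and the lowest for HK1. HK1 took a median of 78.8% of the 2.

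Phosphofructokinase, which commits sugar to glycolysis, came mainly from the platelet-type gene PFKP, with 85.7 to 129 FPKM and a median of 76.6% of the 3 PFK genes. PFKL ranged from 18.7 to 21.9 FPKM and PFKM from 9.85 to 12.8 FPKM. GPI, the isomerase before that step, ranged from 20.2 to 28.0 FPKM. Its FPKM was divided by 11043 bases, the longest length of the upper glycolysis genes, and its level beside theirs depends on that length. ALDOA was listed at only 3.76 to 7.76 FPKM and ALDOC at 0.0807 to 0.404 FPKM, low for enzymes of a pathway in which TPI1 stood at 578 FPKM or above. The exons of ALDOA (chr16:30064164-30070457, plus strand, GENCODE 29 on GRCh38) share 42.3% of their bases with a second protein-coding gene on the same strand, and in RefSeq 99.9% of its span lies within LOC112694756. LOC112694756 is in the table at a median of 0.366 FPKM. How fragments in shared exons were counted is not given in the sources used here, so the level of ALDOA is uncertain.

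Lower glycolysis, from GAPDH to pyruvate kinase, had the lowest median spread of the 7 roles. The SD of log2(FPKM + 0.1) over the 7 libraries without PBS replicate 4 had a median of 0.10 over these 6 genes, 0.160 over all tested members and 0.137 over all genes tested. Single genes of the role differed, with 0.30 for ENO2 and 0.15 for PGK1, and EGLN1 of the oxygen sensors was at 0.07. ENO1, the main enolase, was at 904, 874, 906 and 909 FPKM with PBS and 964, 909, 894 and 845 FPKM with gluconate, with an SD of 0.06. PKM, pyruvate kinase, ranged from 696 to 791 FPKM, PGAM1, phosphoglycerate mutase, from 177 to 207 FPKM, and PGK1, phosphoglycerate kinase, from 106 to 141 FPKM.

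GAPDH was at 2725, 2511, 2462 and 3806 FPKM with PBS and at 2984, 2314, 2597 and 2561 FPKM with gluconate (log2 fold change -0.12 ± 0.14 SE, limma adjusted p = 0.787, exact permutation p = 0.60). PBS replicate 4 alone made the PBS mean the higher one: without that library the log2 fold change was 0.02. The value of PBS replicate 4 was 1.28 times the highest of the other 7 libraries and rested on 26044 fragments, with a 95% Poisson interval of 3760 to 3852 FPKM (counting error only). ENO2, the neuron-type enolase, varied most of the group, at 63.3, 55.3, 102 and 95.8 FPKM with PBS and 79.9, 63.4, 71.5 and 57.9 FPKM with gluconate. Its highest libraries were PBS replicates 3 and 4.

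Lactate dehydrogenase and the monocarboxylate transporters gave the 2 ratios with the lowest p among 14. LDHA was at 729, 660, 761 and 741 FPKM with PBS and 816, 770, 791 and 712 FPKM with gluconate (log2 fold change 0.10 ± 0.07 SE, limma adjusted p = 0.740, exact permutation p = 0.20, and 0.11 without PBS replicate 4). LDHB was at 635, 577, 689 and 582 FPKM and at 636, 607, 577 and 507 FPKM. Neither gene separated the groups, and their ratio nearly did. LDHB over LDHA was 0.871, 0.874, 0.905 and 0.785 with PBS and 0.779, 0.788, 0.730 and 0.712 with gluconate, a difference of -0.19 on the log2 scale (two-sided exact permutation test, p = 0.0571, 0.711 after adjustment over 14 ratios). Of the PBS ratios, that of PBS replicate 4 fell between 2 gluconate ratios. Without it the groups did not overlap, with a difference of -0.23 and an exact p = 0.0571, the smallest that 3 against 4 libraries allow. In GENCODE 29, 33.4% of the exonic bases of LDHB are shared with another protein-coding gene on the same strand, so its share of the fragments is uncertain.

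SLC16A1 (MCT1, chr1:112911847-112957013, minus strand, GENCODE 29 on GRCh38), which carries lactate and pyruvate with a proton in either direction, was at 71.3, 73.9, 79.6 and 49.8 FPKM with PBS and at 70.1, 61.5, 62.1 and 61.6 FPKM with gluconate. PBS replicates 1 to 3 were above all gluconate libraries and PBS replicate 4 was below them all. With 8 libraries the log2 fold change was -0.08 ± 0.14 (SE, limma adjusted p = 0.836, exact permutation p = 0.657). Without PBS replicate 4 it was -0.23 ± 0.07 (SE, limma p = 0.00864, adjusted p = 0.802), with an exact permutation p of 0.0571, the smallest that 3 against 4 libraries allow, and SLC16A1 was the only member whose groups then did not overlap, where 3.65% of all genes tested did not overlap in that direction and 2.41% in the other. With all 8 libraries 0 members had groups that did not overlap, against 2.08% of all genes higher and 1.41% lower. The gap was narrow, with gluconate replicate 1 at 70.1 FPKM and PBS replicate 1 at 71.3 FPKM.

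SLC16A3 (MCT4), the exporter found in glycolytic cells, was at 44.8, 41.5, 47.4 and 39.1 FPKM with PBS and 50.3, 42.8, 51.9 and 43.7 FPKM with gluconate, and the groups overlapped. SLC16A3 over SLC16A1 was 0.629, 0.561, 0.596 and 0.785 with PBS and 0.718, 0.695, 0.836 and 0.710 with gluconate. The difference on the log2 scale was 0.21 (two-sided exact permutation test, p = 0.143, 0.711 adjusted over 14 ratios) and 0.31 without PBS replicate 4 (exact p = 0.0571, the smallest possible), where the groups did not overlap. SLC16A1, the denominator, was by itself without overlap in those libraries, so the ratio is not a separate observation. PDK1 ranged from 0.952 to 1.56 FPKM and PDK3, which also phosphorylates pyruvate dehydrogenase, from 0.252 to 0.483 FPKM. The FPKM of PDK1 was divided by a length of 15188 bases and that of PDK3 by 13074 bases, the longest of the set.

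Of the 14 ratios of isozymes and paralogs, 0 had an exact p under 0.05, the smallest p that 4 against 4 libraries allow being 0.0286. Beyond LDHB over LDHA and SLC16A3 over SLC16A1, the exact p values ran from 0.314 to 0.914, and from 0.171 to 0.857 without PBS replicate 4. A ratio within a library does not depend on how that library was scaled. The plot of the ratios gives all 14.

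**Figure D3:**
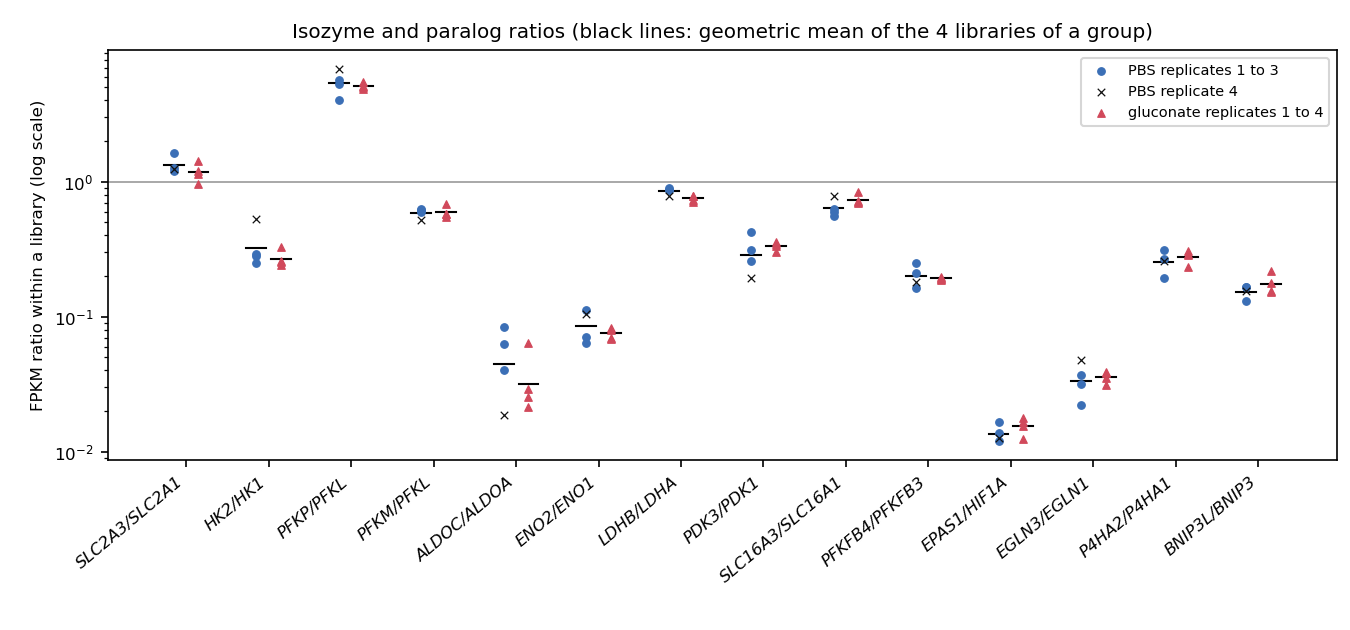
FPKM ratio of 14 pairs of isozymes or paralogs in each library (log scale), with PBS replicates 1 to 3 as circles, PBS replicate 4 as a cross and gluconate libraries as triangles; black lines are geometric means of the 4 libraries of a group. LDHB over LDHA lies at 0.871 to 0.905 in PBS replicates 1 to 3 and at 0.712 to 0.788 with gluconate, and HK2 over HK1 stands at 0.525 in PBS replicate 4.

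The PFKFB enzymes make and break fructose 2,6-bisphosphate, an activator of phosphofructokinase. PFKFB3 was at 15.9, 13.2, 14.2 and 14.5 FPKM with PBS and 14.7, 16.0, 15.3 and 13.2 FPKM with gluconate (log2 fold change 0.03 ± 0.09 SE, limma adjusted p = 0.898, exact permutation p = 0.657, and 0.04 without PBS replicate 4). PFKFB4 ranged from 2.47 to 3.53 FPKM. Neither gene separated the groups.

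Among the oxygen sensors, HIF1A, the alpha subunit of HIF-1, was at 115, 108, 73.4 and 73.6 FPKM with PBS and 94.9, 102, 114 and 99.8 FPKM with gluconate (log2 fold change 0.18 ± 0.16 SE, limma adjusted p = 0.743, exact permutation p = 0.40). It was 0.08 without PBS replicate 4 (exact permutation p = 0.80). PBS replicates 3 and 4 were the lowest libraries, and the other 6 lay at 94.9 FPKM or above. HIF1A mRNA does not give the level of the protein, which is set mainly by its degradation. EPAS1, which encodes HIF-2 alpha, was far lower, at 1.37, 1.48, 1.22 and 0.928 FPKM with PBS and 1.58, 1.27, 1.78 and 1.78 FPKM with gluconate, and the value in PBS replicate 4 rested on 20 fragments. EGLN1 (PHD2), the main HIF prolyl hydroxylase, ranged from 37.6 to 43.4 FPKM. EGLN3 (PHD3), itself a HIF target, ranged from 0.926 to 2.06 FPKM, lowest in PBS replicate 3 and highest in PBS replicate 4, where it rested on 22 fragments.

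P4HA2 (chr5:132191838-132295315, minus strand, GENCODE 29 on GRCh38) encodes an alpha subunit of collagen prolyl 4-hydroxylase, which needs oxygen to hydroxylate collagen in the endoplasmic reticulum. It was at 15.7, 15.1, 12.1 and 13.1 FPKM with PBS and at 14.3, 16.9, 19.3 and 17.1 FPKM with gluconate. Gluconate replicates 2 to 4 were above all PBS libraries, and gluconate replicate 1 lay between them. The log2 fold change was 0.27 ± 0.12 (SE, limma p = 0.0469, adjusted p = 0.740, exact permutation p = 0.0857), 1.21-fold with a 95% interval of 1.00 to 1.45, and 0.24 without PBS replicate 4. The unadjusted limma value was above 0.05 without PBS replicate 3 or 4 or gluconate replicate 2, 3 or 4 (0.0684 to 0.139). It was also above 0.05 with voom, quantile normalization, library weights, the replicate block and median ratio scaling (0.0502 to 0.103), and the direction stayed in all of these. P4HA1, the other alpha subunit, was at 58.6, 48.1, 62.6 and 50.8 FPKM with PBS and 61.3, 57.9, 67.9 and 55.3 FPKM with gluconate, and its groups overlapped.

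The hypoxia-responsive targets differed in how much they varied between libraries. Over the 7 libraries without PBS replicate 4, the SD of log2(FPKM + 0.1) had a median of 0.215 over the 11 targets, 0.142 over 38 other hypoxia-responsive genes tested and 0.137 over all genes tested. ADM, which encodes the vasodilator adrenomedullin, had the largest of the targets, 0.58, followed by NDRG1 (0.41), DDIT4 (0.36) and ANKRD37 (0.31). ADM was at 23.4, 75.1, 27.4 and 54.8 FPKM with PBS and 25.9, 24.2, 27.8 and 32.8 FPKM with gluconate, so that PBS replicates 2 and 4 alone were high. Its log2 fold change of -0.55 was the largest in size among the members tested, with an adjusted p of 0.740 (limma), and it was -0.40 without PBS replicate 4.

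BNIP3 was at 111, 89.6, 141 and 151 FPKM with PBS and at 143, 95.1, 108 and 94.2 FPKM with gluconate (log2 fold change -0.15 ± 0.18 SE, limma adjusted p = 0.791, exact permutation p = 0.543). It was -0.05 without PBS replicate 4 (exact permutation p = 0.971). NDRG1, a stress gene that HIF and other factors induce, was at 81.5, 66.7, 133 and 129 FPKM with PBS and 123, 63.3, 95.5 and 83.5 FPKM with gluconate. In both genes PBS replicates 3 and 4 and gluconate replicate 1 were high and PBS replicate 2 and gluconate replicate 2 were among the low libraries. DDIT4 was at 20.7, 18.9, 37.2 and 26.3 FPKM with PBS and 30.0, 19.8, 26.7 and 21.8 FPKM with gluconate. In GENCODE 29, 41.2% of its exonic bases are shared with DDIT4-AS1 on the opposite strand, and strand was not stated for the counting.

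BNIP3L, a second mitophagy receptor, ranged from 14.7 to 23.5 FPKM, ERO1A, an oxidase of the endoplasmic reticulum, from 26.1 to 34.0 FPKM, KDM3A, a histone demethylase, from 12.8 to 19.2 FPKM, and MXI1, an antagonist of MYC, from 5.33 to 8.86 FPKM. ANKRD37 was at 7.88, 4.78, 7.21 and 13.3 FPKM with PBS and 9.16, 5.77, 6.03 and 7.07 FPKM with gluconate. PBS replicate 4 was the highest, with 54 fragments and a 95% Poisson interval of 9.97 to 17.3 FPKM. ANKRD37 shares 35.2% of its exonic bases with UFSP2 on the opposite strand, which was at a median of 9.99 FPKM.

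Some of the members shared an order of the libraries that cut across the treatment groups. It was noticed in the values and is given as a description. In 9 of the 38 tested members the 3 highest libraries were PBS replicates 3 and 4 and gluconate replicate 1, which was so for 0.905% of all genes tested. The 9 were SLC2A1, SLC2A3, HK2, TPI1, ENO2, PDK1, BNIP3, NDRG1 and ERO1A. Without PBS replicate 4, PBS replicate 3 and gluconate replicate 1 were the 2 highest libraries in 14 of 38 members, against 3.10% of all genes, which added HK1, LDHB, KDM3A, MXI1 and DDIT4. With libraries scaled by median ratios the 2 counts were 14 (3.19% of all genes) and 16 (5.36%), and with quantile normalization 9 (2.51%) and 12 (5.34%). At the other end, 12 of 38 members had their lowest value in PBS replicate 2 (5.36% of all genes) and 8 in gluconate replicate 2 (3.96% of all genes). These shares of all genes are low because PBS replicate 4 held the lowest value of 58.0% of genes. Among the other 7 libraries, 14 members were lowest in PBS replicate 2 (14.4% of all genes) and 9 in gluconate replicate 2 (7.62%). Other members ran against it, with PFKP, HIF1A, EGLN3 and P4HA2 lowest in PBS replicate 3. The heat map shows the order by role.

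**Figure D4:**
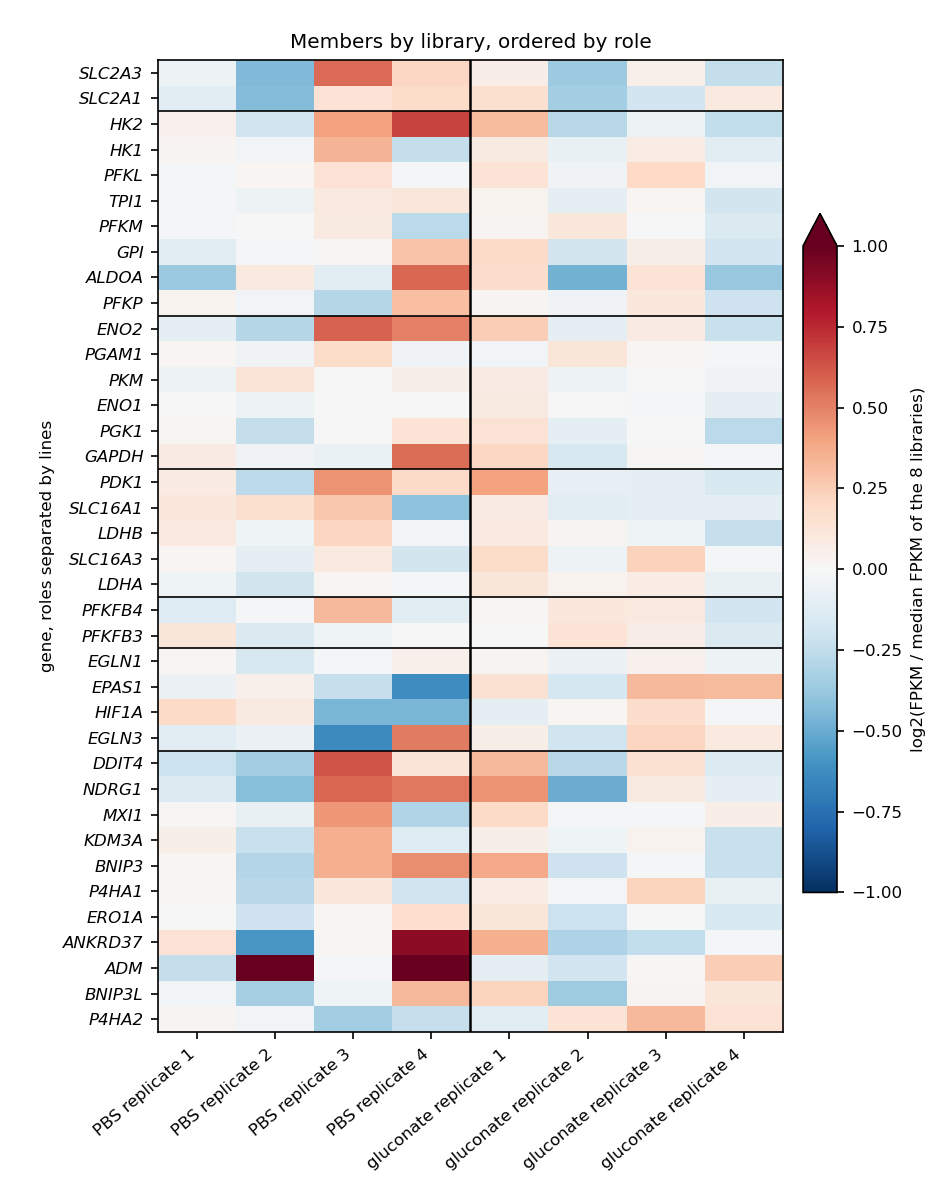
log2 of FPKM over the median of the 8 libraries, for the 38 members tested (rows, separated by role) in each library (columns); colors end at 1, which ADM exceeds in PBS replicate 2. SLC2A3, ENO2, PDK1, NDRG1, BNIP3 and DDIT4 are red in PBS replicate 3 and gluconate replicate 1 and blue in PBS replicate 2 and gluconate replicate 2, while HIF1A is blue in PBS replicates 3 and 4.

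Other genes of the pathway were counted in the same way. Of 38 other hypoxia-responsive genes tested, PBS replicate 3 and gluconate replicate 1 were the 2 highest without PBS replicate 4 in 5 (FAM162A, HILPDA, WSB1, CXCR4 and RRAGD), and of all 76 other genes tested in the same 5. The difference between the lists was not tested. The part of depth, host cells or handling of the tumors in this order was not tested.

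In PBS replicate 4 more members were high than low, while over the whole table more genes were low. It was above the highest of the other 7 in 13 of 38 members, against 13.7% of all genes, and below the lowest in 6 of 38, against 58.0%. Of the 76 other genes of the pathways tested, 9 were above and 29 below. The 13 included 5 of the 8 tested genes of upper glycolysis (HK2, GPI, PFKP, ALDOA and TPI1), GAPDH and 4 hypoxia-responsive targets (BNIP3, BNIP3L, ANKRD37 and ERO1A). The 6 were HK1, PFKM, SLC16A1, SLC16A3, EPAS1 and MXI1. The distance was small: 0 members were over 2-fold above or below, against 2.53% and 6.33% of all genes. With libraries scaled by median ratios, 24 members were above (31.9% of all genes) and 1 was below (33.0%), so the direction relative to the other libraries depends on the scaling, and the members stood higher than the table as a whole in PBS replicate 4 under either.

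Other genes of the pathways were taken from a list of 102, of which 97 were in the table and 76 were tested. With 8 libraries 5 of the 76 were higher with gluconate at an unadjusted p under 0.05 (ENO3, SLC2A10, LOX, TFRC and BHLHE40; 3.13% of all genes) and 1 was lower (SLC6A8; 1.49%). Without PBS replicate 4, 4 were higher (ENO3, LOX, TFRC and VLDLR; 2.83% of all genes) and 3 were lower (PGM2, CITED2 and SLC6A8; 3.36%). SLC2A10, BHLHE40, VLDLR and PGM2 are named only to complete these counts. None had an adjusted p under 0.05. Their median log2 fold change was 0.08 with 8 libraries and 0.04 without PBS replicate 4, against 0.07 and -0.00 over all genes tested.

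LOX, which crosslinks collagen and elastin outside the cell, was at 7.94, 9.81, 6.24 and 7.59 FPKM with PBS and at 10.3, 11.1, 10.5 and 12.0 FPKM with gluconate. All gluconate libraries were above all PBS libraries, with a log2 fold change of 0.48 ± 0.13 (SE, limma p = 0.00502, adjusted p = 0.740, exact permutation p = 0.0286) and of 0.47 without PBS replicate 4. TFRC, the transferrin receptor, was at 37.5, 39.4, 41.4 and 39.7 FPKM with PBS and 45.4, 46.1, 43.0 and 44.6 FPKM with gluconate, again without overlap (log2 fold change 0.18 ± 0.06 SE, limma p = 0.0185, adjusted p = 0.740, exact permutation p = 0.0286, and 0.18 without PBS replicate 4). ENO3, the muscle-type enolase, was at 5.56, 5.90, 4.62 and 3.90 FPKM with PBS and 6.33, 6.78, 6.42 and 6.82 FPKM with gluconate, also without overlap (log2 fold change 0.41 ± 0.13 SE, limma p = 0.0132, adjusted p = 0.740, exact permutation p = 0.0286, and 0.30 without PBS replicate 4). These were the 3 genes of the 76 with groups apart in the higher direction, where 2.08% of all genes were. In the lower direction 2 of the 76 were apart (SLC6A8 and CITED2), where 1.41% of all genes were. Without PBS replicate 4, 4 of the 76 were apart in the higher direction (2.41% of all genes) and 5 in the lower (3.65%). The unadjusted limma value of TFRC was above 0.05 without gluconate replicate 1 or 2 (at most 0.0526) and with median ratio scaling (0.218, log2 fold change 0.11). The exact p of 0.0286 is the smallest that 4 against 4 libraries allow and is met by every gene whose groups do not overlap.

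SLC6A8, the creatine transporter, was at 18.6, 19.7, 20.1 and 19.5 FPKM with PBS and 17.8, 17.2, 18.3 and 14.4 FPKM with gluconate, with no overlap (log2 fold change -0.21 ± 0.09 SE, limma p = 0.0461, adjusted p = 0.740, exact permutation p = 0.0286, and -0.21 without PBS replicate 4). Its unadjusted limma value was above 0.05 without any 1 of PBS replicates 1 to 3 or gluconate replicates 1, 2 and 4 (0.0516 to 0.129). That value was also above 0.05 with the replicate block. CITED2, which competes with HIF alpha for the coactivators CBP and p300, was at 34.2, 44.2, 33.9 and 154 FPKM with PBS and 30.2, 29.9, 31.2 and 32.9 FPKM with gluconate. All gluconate libraries were below all PBS libraries, and PBS replicate 4 stood far above the rest: the log2 fold change was -0.77 ± 0.42 with it (SE, limma p = 0.0977, adjusted p = 0.740, exact permutation p = 0.0286) and -0.26 ± 0.10 without it (SE, limma p = 0.0233, exact permutation p = 0.0571). JMJD6, an oxygen-dependent hydroxylase of lysines, overlapped between the groups, at 6.13, 7.04, 7.77 and 7.30 FPKM with PBS and 5.77, 6.04, 6.57 and 6.29 FPKM with gluconate (log2 fold change -0.19, limma adjusted p = 0.740, exact permutation p = 0.0857, and -0.17 without PBS replicate 4).

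**Figure D5:**
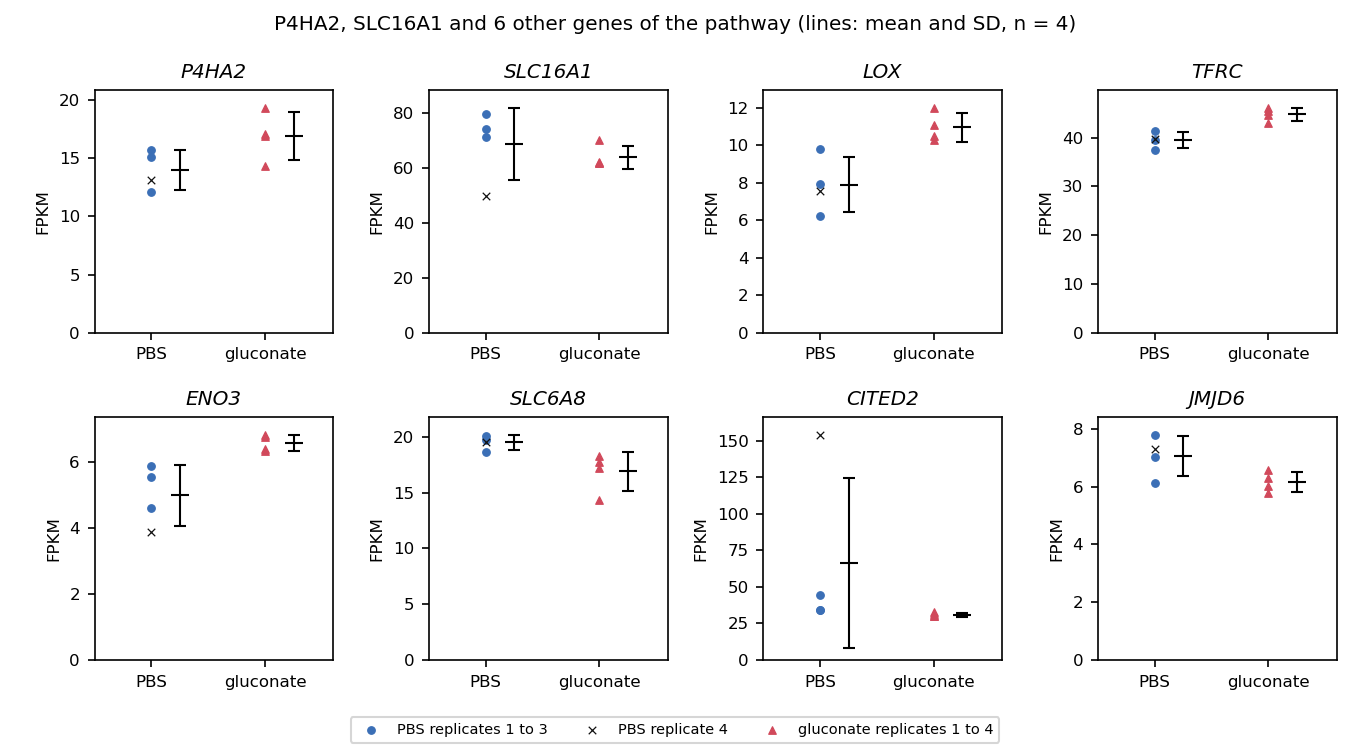
FPKM of P4HA2, SLC16A1 and 6 other genes of the pathway in each library (circles PBS replicates 1 to 3, crosses PBS replicate 4, triangles gluconate), with the mean and SD of the 4 libraries of a group as black lines. LOX, TFRC and ENO3 have all gluconate points above all PBS points, SLC6A8 and CITED2 all below, and CITED2 reaches 154 FPKM in PBS replicate 4.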

How the data were processed

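RNA of 8 libraries labelled as tumors was measured by polyA RNA-seq (VAHTS Universal V6 kit, per the labels). The authors deposited FPKM values for 24196 genes by symbol, on GRCh38 per the labels, and the aligner, counter, annotation and strand setting are not given in the sources used here. The fragments of each gene were recovered from the steps of the FPKM values (whole within 0.001 fragments in 100.0% of genes) and gave the depth of each library: 3953206 fragments in PBS replicate 4 and 39325749 to 46551535 in the others. Poisson intervals cover counting error only. The 12 libraries of cells of the same series were not analysed here, and 0 columns of the table were left unused.

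Groups were compared with limma 3.58.1 in R 4.3.3 (lmFit, eBayes with a trend, two-sided) on log2(FPKM + 0.1) over the 12486 genes with a mean of at least 0.5 FPKM, with Benjamini-Hochberg adjustment over all of them. A fold change on this scale understates the change of low genes. Ratios within a library were compared with exact permutation tests (Python 3.11.15, scipy 1.17.1). The fits were tested on simulated data. The members and lists were chosen with earlier results of these data known. Full statistics were given to members with an unadjusted p under 0.05 or groups that do not overlap in either set of libraries and to the most abundant member of each role. Other genes were named if p was under 0.05 in both fits or among the 3 lowest in a direction; further genes are named only to complete a count or an order, after their values were seen. Other settings were a pseudocount of 1 or of 0.01, all genes kept or only those with a mean of at least 1 FPKM, median ratio and quantile scaling, library weights, voom on the recovered fragments, the replicate number as a block, and 1 library left out at a time. Exact permutation tests of single genes were added after the data were seen, as were the further settings of the comparison without PBS replicate 4 and of the library order. Positions are from GENCODE 29.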

Additional observations from a re-analysis of the deposited data

Results flagged for a closer look

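In each group of 4 libraries, the highest and the lowest value of every member and of every ratio were compared with their nearest neighbor by Dixon's ratio. Of 108 such groups 6 were past the 95% critical value for 4 values, where chance gives about 5.4. ENO1 in PBS replicate 2, at 874 FPKM, was below the 904 to 909 FPKM of the other PBS libraries. PDK1 in gluconate replicate 1, at 1.5 FPKM, was above 1.03 to 1.07 FPKM. SLC16A1 in gluconate replicate 1, at 70.1 FPKM, was above 61.5 to 62.1 FPKM. SLC2A3 over SLC2A1 in PBS replicate 3, at 1.63, was above 1.21 to 1.26. HK2 over HK1 in PBS replicate 4, at 0.525, was above 0.248 to 0.291. SLC16A3 over SLC16A1 in gluconate replicate 3, at 0.836, was above 0.695 to 0.718.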

How the results depend on the processing

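The number of members higher with gluconate (1) was 0 with median ratio scaling, quantile normalization, library weights, voom and the replicate block, and ranged from 0 to 1 when a library was left out (1.27% to 7.44% of all genes). The number lower (0) was 1 with library weights (3.08% of all genes) and 0 to 1 when a library was left out (0.865% to 3.36% of all genes). Without PBS replicate 4, the number higher (0) ranged from 0 to 2 when a further library was left out (1.66% to 6.19% of all genes). Of the other genes, the number higher (5) was 3 with median ratio scaling (2.95% of all genes). It ranged from 2 (without gluconate replicate 2, 2.10% of all genes) to 9 (without PBS replicate 1, 7.44%) when a library was left out. Of the same genes, the number lower (1) was 2 with library weights (3.08% of all genes) and 0 with the replicate block (1.34%). It was 0 to 3 when a library was left out (0.865% to 3.36% of all genes). With library weights the log2 fold change was 0.012 for SLC2A3, 0.0083 for GAPDH and 0.036 for BNIP3, each negative in the report, and with median ratio scaling that of PFKFB3 was -0.033. Leaving out 1 library, GAPDH ranged from -0.19 to 0.022 (without PBS replicate 4) and PFKFB3 from -0.0092 (without PBS replicate 2) to 0.086. The log2 ratio of ALDOC over ALDOA differed by 0.045 between the groups with a pseudocount of 1 and by -0.49 with none. With median ratios, PBS replicate 4 was above the other 7 in 24 members and below in 1, and 14 members were highest in PBS replicates 3 and 4 and gluconate replicate 1 (3.19% of all genes). The cause was not tested in any of these. LOX and ENO3 kept their direction and an unadjusted limma value under 0.05 under each setting, and the other named genes that crossed 0.05 kept their direction.

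The same-numbered libraries of the 2 groups correlated with r of -0.18, 0.08, 0.17 and -0.06 in their deviations from the group means, and 2 of 4 correlated best with their own number, so the numbers were not taken to pair the samples. With the replicate block, 0 members were higher and 0 lower, 470 genes of the table had an unadjusted p under 0.05 against 577, and the paired exact permutation p of LDHB over LDHA was 0.125, the smallest that 4 pairs allow. At the depth of PBS replicate 4, ALDOC rested on 1 fragment and PDK3 on 13.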
